A study of Oryza sativa with 2 samples.

Results

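The genes described are 8 enzyme loci of the chlorophyll branch of tetrapyrrole synthesis and the transcription factor loci GLK1 and GLK2, measured in rice root hair RNA. They were chosen by locus identifier, with earlier results of these data known, and all 10 had probes among the 23325 loci on the array. They were covered by 36 spots, of which 35 carry the words mRNA and CDS with 3′ UTR in the probe name.

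The series has 1 group, labelled "07g39940 over", with 2 arrays that carry the replicate numbers 2 and 1 and are called sample 2 and sample 1 here. Both are root hairs of the cultivar labelled Don-gin, grown for 3 days on MSO medium (age label 3DAG), freed by rubbing frozen seminal roots. The genotype behind the group name, the light during germination, and whether the samples came from separate plantings or lines are not given in the sources used here. There is no control group, so every difference is sample 2 minus sample 1. It is 1 array against 1 array without a test, and the spread between them may be technical.

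Chlorophyll synthesis leaves the common tetrapyrrole pathway where magnesium chelatase inserts magnesium into protoporphyrin. After methylation, ring closure and reduction of protochlorophyllide, a step that needs light in flowering plants, chlorophyllide is oxidised to the b form or joined to a phytol tail by chlorophyll synthase. GLK factors of the GARP family are known from maize and Arabidopsis to activate chlorophyll synthesis and light-harvesting genes. Roots normally hold few green plastids.

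The Cy3 signal used is in arbitrary units, background-subtracted and detrended by the scanner software. Differences are on the log2 scale after each array was scaled to its 75th percentile (2643 in sample 2 and 2583 in sample 1), so a difference of 1 is 2-fold. Detection of a probe means that the scanner software's flag put it well above background. A stricter floor is the highest of 24 random-sequence or artificial control probes, at 49.9 in sample 2 and 44.0 in sample 1. Of the spots that were not scanner controls, 84.3% in sample 2 and 82.5% in sample 1 were well above background.

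The log2 differences of the branch loci were unlike in size, but so were their signals. CRD1, CAO1 and CHLD were the brightest loci in sample 1, so a similar gain in signal gives them a smaller fold. PORA was 9.29-fold higher in sample 2, while CRD1 was 1.02-fold, CAO1 1.05-fold and CHLD 1.17-fold higher. CHLI, CHLH, GLK1 and GLK2 were 2.24-fold to 3.22-fold higher in sample 2, all from low signals, and YGL1 was 1.63-fold higher. PORB was below the detection call on both arrays.

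In all, 9 of the 10 loci were detected on both arrays, against 84.0% of all loci, and none was detected in sample 2 alone (2.41% of all loci) or in sample 1 alone (0.806%). By their brightest probe, 8 loci exceeded the highest control probe in sample 2 and 3 did so in sample 1, against 70.9% and 70.5% of all loci. The 5 loci above that floor in sample 2 alone were CHLI, CHLH, PORA, YGL1 and GLK1. The share of all loci above it in sample 2 alone was not counted. CHLH passed it only by a probe that carries another locus in its own name (59.5), with its next probe at 40.9. A YGL1 probe left out for an outlier flag gave 49.0 in sample 1, above the floor of 44.0 there. All 9 detected loci were higher in sample 2 by some amount, against 55.4% of all loci. This count was 7 with median scaling, and 8 with quantile normalization, by the brightest probe and in the authors' deposited table. Of the 9 detected loci, 5 were at least 2-fold higher in sample 2, against 1.8% of 19582 loci detected on both arrays. The count 2-fold higher in sample 1 was 0, against 0.49%. The median difference was 1.16, against 0.02 for all loci (SD 0.39). Since a locus must be detected in the sample where it is low to be counted, these figures describe the 9 loci and not all 10.

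**Figure D1:**
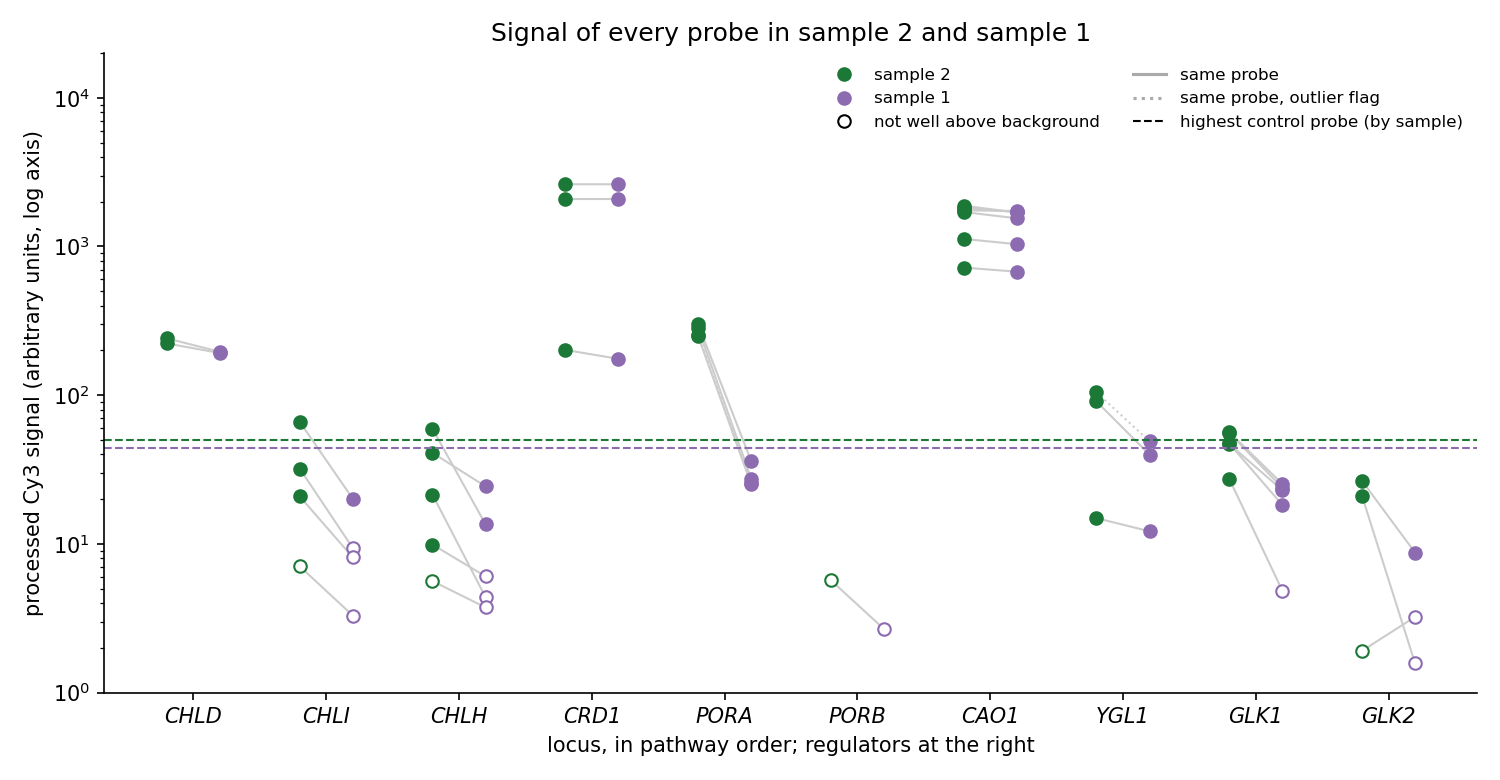
Processed Cy3 signal (arbitrary units, log axis) of all 36 spots, with sample 2 in green at the left and sample 1 in violet at the right of each locus. Lines join the same probe (dotted: outlier flag), open circles were not well above background, and dashed lines mark the highest control probe in each sample (49.9 in sample 2, 44.0 in sample 1). The PORA probes lie between 251 and 300 in sample 2 and between 25.1 and 36.1 in sample 1, while the lines of CRD1, CAO1 and CHLD are nearly level.

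Magnesium chelatase, the first enzyme of the branch, is built from the subunits CHLI, CHLD and CHLH, and their loci all lie on chromosome 3. CHLI (Os03g0563300), the ATPase subunit, had 4 probes with signals of 66.3, 32.1, 20.9 and 7.07 in sample 2, against 20.1, 9.38, 8.11 and 3.30 in sample 1. Each probe was brighter in sample 2, and only the brightest was well above background on both arrays. That probe differed by 1.69 (3.22-fold), 6.70 times the error of that difference computed from the software's signal errors (called the software error below). A further 2 CHLI probes were well above background in sample 2 alone. Their ratios to the undetected sample 1 signals were 3.34 and 2.52, which are not lower bounds.

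CHLD (Os03g0811100), the subunit that forms a complex with CHLI, was detected by both of its probes. They gave 241 and 223 in sample 2, against 196 and 192 in sample 1. The difference was 0.22 with an SD of 0.06 between the probes, and neither probe differed by more than 1.31 times its software error. The log2 difference of CHLI exceeded that of CHLD, its partner in the complex. However, CHLI was measured near background and from a lower signal in sample 1, so the folds do not compare the gains in signal.

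CHLH (Os03g0323200), the subunit that binds the porphyrin, had 5 probes that disagreed in size. Their signals were 59.5, 40.9, 21.5, 9.89 and 5.62 in sample 2, against 13.5, 24.4, 4.37, 6.04 and 3.74 in sample 1. All 5 were brighter in sample 2, and the first 2 were detected on both arrays, with differences of 2.10 and 0.72. The probe with the larger difference carries another locus in its own name, Os07g0656500, though the files assign it to CHLH. With it the CHLH difference was 1.41 (SD 0.98 between 2 probes), and without it 0.72, which leaves 4 loci past 2-fold and a median of 0.72 over the 9 loci.

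CRD1 (Os01g0279100, chromosome 1), the cyclase that closes the fifth ring, was detected by 3 probes. Signals were 2620, 2085 and 202 in sample 2, against 2621, 2085 and 175 in sample 1. The difference was 0.03 with an SD of 0.12 between probes, which leaves the samples apart by less than the probes vary. The software error of each probe's difference was 0.20, so smaller differences were not detectable.

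The POR enzymes reduce protochlorophyllide to chlorophyllide in the light. PORA (Os04g0678700, chromosome 4) gave 300, 284 and 251 in sample 2, against 36.1, 27.5 and 25.1 in sample 1, over the 3 probes without an outlier flag. One more probe, left out because of such a flag, gave 255 in sample 2 and 25.8 in sample 1. Every PORA probe was brighter in sample 2. The difference was 3.22 with an SD of 0.17 between probes, at least 14.0 times the software error at each of them. PORA ranked 5 among the 19582 loci ordered by their difference toward sample 2. In sample 1 all its probes lay below the highest control probe, so the size of the fold rests on signals near the floor. With signals below that control probe raised to it, the difference was 2.48.

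PORB (Os10g0496900, chromosome 10), the other POR gene listed, had 1 probe, with signals of 5.70 in sample 2 and 2.68 in sample 1. Neither was well above background, so no fold is given.

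CAO1 (Os10g0567400, chromosome 10), which oxidises chlorophyllide a to the b form, was covered by 6 probes, all detected on both arrays. They ranged from 722 to 1879 in sample 2, with a mean signal of 1422, and from 676 to 1732 in sample 1, with a mean of 1325. The difference was 0.07 (SD 0.05 between probes), and the largest of any probe was 0.57 times its software error.

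YGL1 (Os05g0349700, chromosome 5) encodes chlorophyll synthase, which attaches the phytol tail. Its probes without an outlier flag gave 90.8 and 14.9 in sample 2, against 39.8 and 12.2 in sample 1. The brighter probe differed by 1.16 and the dimmer by 0.26, and their mean was 0.71 (SD 0.63). Another probe, left out for an outlier flag, gave 105 in sample 2 and 49.0 in sample 1, a difference of 1.06. With this spot kept the YGL1 difference was 0.83.

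GLK1 (Os06g0348800, chromosome 6) was detected on both arrays by 4 of its 5 probes. These 4 gave 56.4, 55.9, 47.4 and 47.0 in sample 2, against 25.3, 23.8, 18.3 and 23.0 in sample 1. All 4 were brighter in sample 2, and the mean difference was 1.16 (2.24-fold, SD 0.14 between 4 probes). The probe detected in sample 2 alone gave 27.5 there and 4.85 in sample 1, at least 3.66-fold higher. The 4 detected probes differed by 4.06 to 5.57 times their software error, but in sample 1 all 5 lay below the highest control probe.

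GLK2 (Os01g0239000, chromosome 1) was close to background throughout. Its 3 probes gave 26.5, 21.1 and 1.91 in sample 2, against 8.73, 1.57 and 3.23 in sample 1. The first was detected on both arrays and was 2.97-fold higher in sample 2 (difference 1.57), and the second, detected in sample 2 alone, was at least 2.81-fold higher. The dimmest was detected on neither array. No GLK2 probe exceeded the highest control probe in either sample, so this difference cannot be placed above that floor.

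At the level of single probes, 34 were left after outlier flags, of which 24 were well above background on both arrays, 6 in sample 2 alone, 0 in sample 1 alone and 4 in neither. Of all 34776 probes of loci, 29728 were well above background on both arrays and 2.64% in sample 2 alone. The shares in sample 1 alone and in neither were not counted. Of the 24, 12 were higher in sample 2 by over 2 software errors and 0 were higher in sample 1, against 8.55% and 1.62% of 29728 probes. These 12 belonged to CHLI, CHLH, PORA, YGL1, GLK1 and GLK2. The files give no probe sequences, so probes of a locus may overlap and are not replicates.

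The loci apart by 2-fold were also the dim ones. With the signals of both samples averaged, CHLI, CHLH, YGL1, GLK1 and GLK2 lay under 50, where 4 of these 5 were 2-fold higher in sample 2, against 6.12% of 3448 loci in that range. PORA lay between 50 and 200, where the share was 2.86% of 3466 loci. CHLD lay between 200 and 1000 (0.679%) and CRD1 and CAO1 at 1000 or over (0.155%). The SD of the difference over all loci was 0.53 under 50 and 0.14 at 1000 or over. Normexp background correction, the authors' deposited table and raising signals to the highest control probe each left 1 of the 9 loci past 2-fold, and this was PORA. Normexp added an offset of 50, which shrinks differences between low signals. The deposited values do so too: a GLK2 probe with a signal of 1.57 in sample 1 stood at 5.08 on their log2 scale. The raised floor was 49.9 in sample 2, and no probe of CHLI, CHLH, GLK1 or GLK2 exceeded 66.3. These 4 loci could therefore not pass 2-fold with the raised floor, so their fall there is no separate check. Under these settings the shares of all loci past 2-fold were 0.352%, 0.439% and 0.638%. Median scaling left 5 loci past 2-fold (1.4% of all loci), quantile normalization 4 (1.13%) and no filter on dim probes 6 of 10 (3.58%). The part of signal level in which steps differed was not tested.

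**Figure D2:**
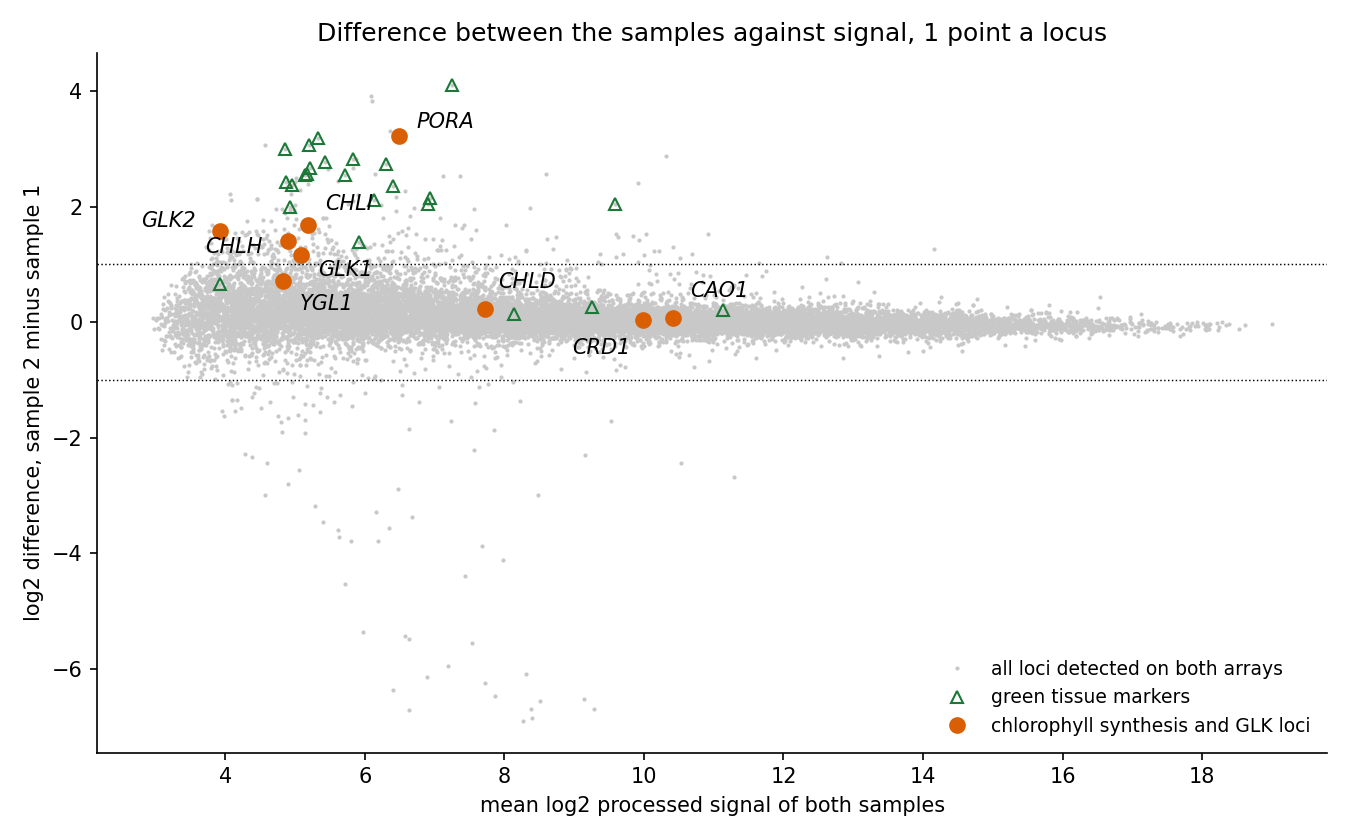
Log2 difference, sample 2 minus sample 1, against the mean log2 processed signal, 1 point for each of 19582 loci detected on both arrays. Orange circles are the 9 detected chlorophyll synthesis and GLK loci, green triangles the 24 green tissue markers, and dotted lines mark 2-fold. PORA stands at 3.22 among the green tissue markers, CRD1 and CAO1 lie near 0 at high signal, and CHLI, CHLH, GLK1 and GLK2 lie between 1.16 and 1.69 at low signal.

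Genes of green tissue were higher in sample 2 as a list, but the list was chosen with earlier results of these data known. The counts therefore describe the list and are no separate support. All 24 photosynthesis loci (antenna proteins, photosystem subunits and Rubisco genes) were detected on both arrays, against 84.0% of all loci. Of these, 20 were at least 2-fold higher in sample 2, against 1.8% of all loci, and the list's median was 2.40. The count and median were 15 and 1.11 with normexp, 18 and 1.44 in the authors' deposited table, and 12 and 1.02 with signals raised to the highest control probe. The furthest apart were CAB2R (Os01g0600900), an antenna protein, at 4.11, the locus Os02g0197600 at 3.18, an RBCS locus (Os12g0292400) at 3.07 and PSAH (Os05g0560000) at 2.99. Summed over the list, the mean signals were 7326 in sample 2 and 3669 in sample 1. Part of this gap came from Os03g0592500 (1570 in sample 2, 374 in sample 1), whose probes disagreed (SD 2.01). Its brightest signal was 24093 in sample 2 and 26913 in sample 1. On this list, 23 loci in sample 2 and 9 in sample 1 exceeded the highest control probe, against 70.9% and 70.5% of all loci. The list ranged from 0.14 to 4.11, so any locus 2-fold higher in sample 2 falls within it. PORA, at 3.22, lay above the list's median, whereas CHLI, CHLH, GLK1 and GLK2, at 1.16 to 1.69, lay below it. In such bulk RNA, more cells of a type and more RNA per cell cannot be told apart. The part of green tissue in the differences of the pigment loci was not tested.

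Other markers, also listed with earlier results of these data known, differed in other ways between the samples. Of all loci, 84.0% were detected on both arrays, 2.41% in sample 2 alone and 0.806% in sample 1 alone. Among those detected on both, 1.8% were 2-fold higher in sample 2 and 0.49% in sample 1. All 4 root hair markers were detected on both arrays, none 2-fold apart, and the furthest apart was Os10g0122600, with 128816 in sample 2 and 148676 in sample 1 (-0.24). Of 6 seed marker loci, 4 were detected on both arrays, all over 2-fold lower in sample 2, and 2 in sample 1 alone. The 4 were Os02g0249800 at -6.90 and the glutelin (seed storage protein) genes GLUA3 at -6.37, GLUA1 at -6.09 and GLUA2 at -4.39. The signals of the 6 loci summed to 121 in sample 2 and 8238 in sample 1. Among 6 stele and endodermis markers PHO1;2 and CASP1 were detected on both arrays, at -0.30 and -0.63, SHR1 in sample 2 alone, and SCR1, SCR2 and HKT1;5 in neither. These 6 summed to 217 in sample 2 and 279 in sample 1. Both arrays lay on the same slide and were scanned together.

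The common tetrapyrrole steps, which lead from glutamate to protoporphyrin and also feed heme, were detected at 9 of 9 loci on both arrays. Of all loci, 84.0% were so detected, and 1.8% of these were 2-fold higher in sample 2 and 0.49% in sample 1. None of the 9 was 2-fold apart, and their median was -0.08. The furthest apart was Os04g0490000, with 17.1 in sample 2 and 24.8 in sample 1 (-0.57), both under the highest control probe. The upstream loci lay on the side of sample 1 or near 0, with a highest value of 0.01, whereas the 9 detected branch and GLK loci ranged from 0.03 to 3.22. Signal level was not matched. In sample 1, 8 of the 9 upstream loci exceeded the highest control probe, against 3 of the 10 branch and GLK loci and 70.5% of all loci. The bright branch loci CRD1 and CAO1 differed by only 0.03 and 0.07. The part of signal level in this contrast was not tested.

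Of 6 other loci listed for the chlorophyll branch, 4 were detected on both arrays, against 84.0% of all loci. Among these 4, 1 was 2-fold higher in sample 2, against 1.8% of all loci detected on both arrays. This was CHLP (Os02g0744900), the geranylgeranyl reductase that makes the phytol tail, with a mean signal of 129 in sample 2 and 27.5 in sample 1 (difference 2.20, 4.59-fold, SD 0.10 between 2 probes). In sample 1 its probes lay under the highest control probe. The locus Os06g0132400 was well above background in sample 2 alone (14.4, against 6.50 in sample 1, at least 1.92-fold higher), and Os10g0567100 in neither. The list's median was 0.47.

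The heme and breakdown loci differed little, as did most loci. Of all loci, 84.0% were detected on both arrays, and 1.8% of these were 2-fold higher in sample 2 and 0.49% in sample 1. In the heme and bilin branch, 4 of 4 loci were detected, none was 2-fold apart, the median was 0.02 and the furthest apart was Os05g0361200 at 0.31. For chlorophyll breakdown, 5 of 5 loci on the array were detected, none was 2-fold apart and the median was 0.02. The furthest apart there was NYC1 (Os01g0227100), a chlorophyll b reductase, with 1647 in sample 2 and 1394 in sample 1 (0.21).

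Light and greening regulators other than the GLK loci were detected on both arrays at 8 of 10 loci on the array. One of the 8 was 2-fold higher in sample 2, Os01g0286100, with 25.8 in sample 2 and 11.1 in sample 1 (difference 1.19, 1 probe). Neither signal reached that floor of control probes. The list's median was 0.08, and the shares of all loci were 84.0% for detection and 1.8% for 2-fold higher in sample 2.

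**Figure D3:**
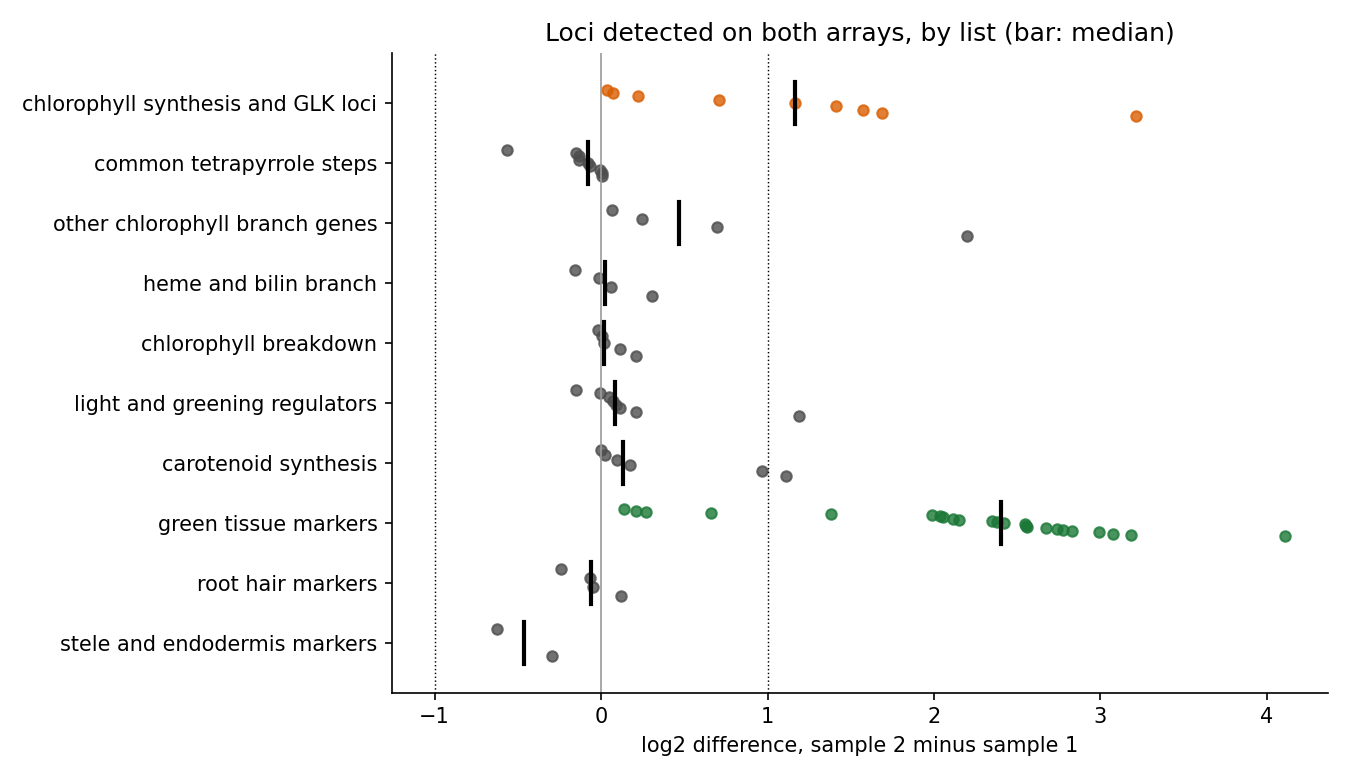
Log2 difference, sample 2 minus sample 1, of each locus detected on both arrays, by list, with the median as a black bar and 2-fold as dotted lines. The chlorophyll synthesis and GLK loci spread from 0.03 to 3.22 (median 1.16), the green tissue markers have a median of 2.40, and the common steps, heme branch and breakdown loci lie near 0.

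**Figure D4:**
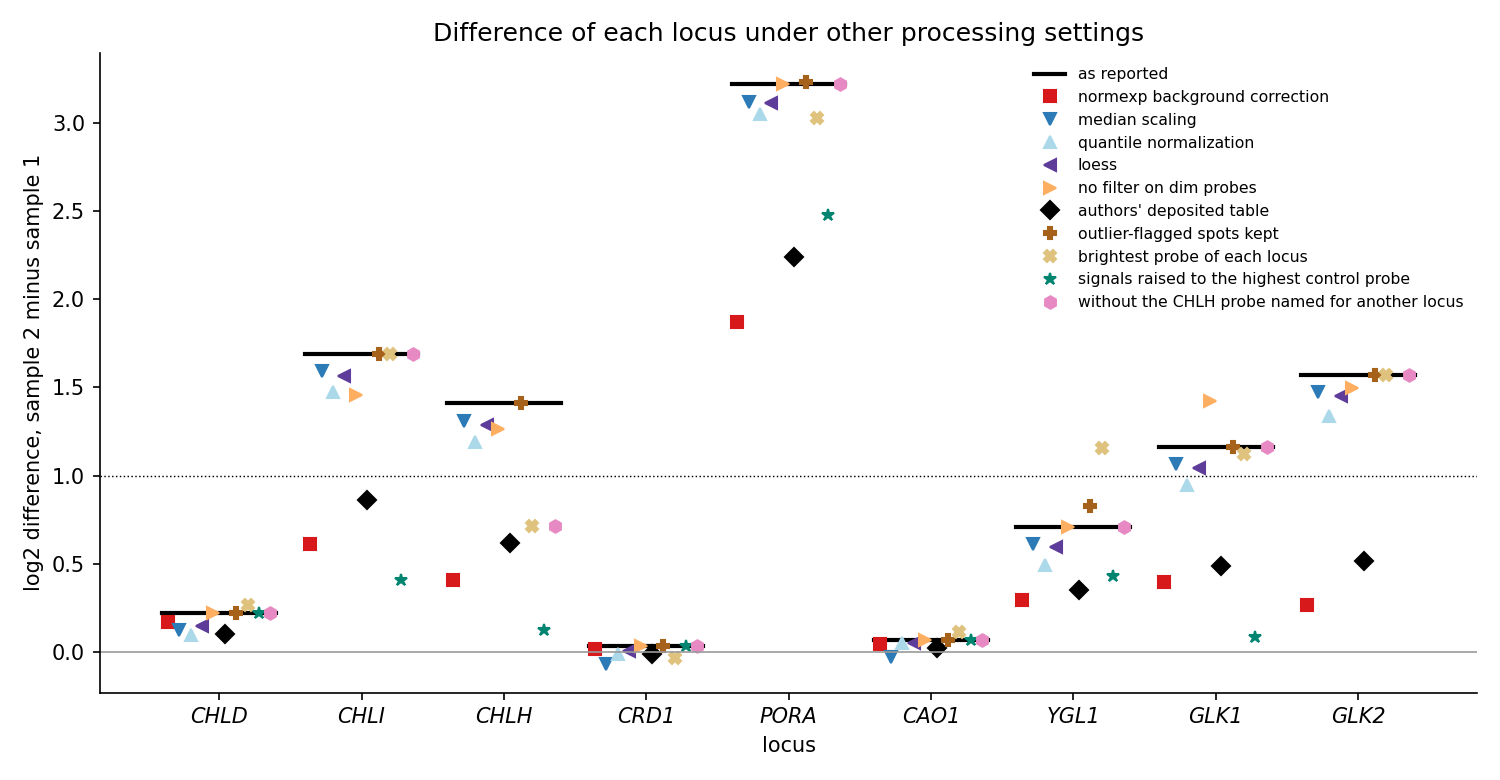
Log2 difference, sample 2 minus sample 1, of each detected locus as reported (black bar) and under 10 other settings (symbols). PORA stays above 2-fold (dotted line) under every setting shown, from 1.87 to 3.23, whereas CHLI, CHLH, GLK1 and GLK2 fall below it with normexp and in the table that the authors deposited. Both of these shrink differences between low signals. GLK2 has no symbol where both its signals were at the raised floor.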

How the data were processed

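Per the labels' protocols, 100 ng of RNA was labelled with Cy3 and hybridised to 1-colour Agilent arrays. The authors deposited intensity values made with Agilent Feature Extraction, which the file headers give as version 11.5.1.1 and the submitters' processing notes as 9.1. Probes were designed on IRGSP5, per the file headers. The authors also deposited a table of log2 values with a present or absent call. Its making is not described in the sources used here; its columns followed the log2 median spot signal (r = 0.9999 for sample 2 and 0.9995 for sample 1), with medians of 8.19 on both arrays. The depth of an array is its signal over background.

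From the 45151 spots, 1417 scanner controls, 590 named control spots and 1436 outlier-flagged spots were left out. Log2 processed signals were scaled by the 75th percentile, spots of a probe averaged, and differences averaged over the probes of a locus detected on both arrays (29728 of 34776 probes). Lower bounds ("at least") use the lowest detected signal, 7.14 in sample 2 and 7.33 in sample 1. Where a probe's own undetected signal was higher, the ratio to that signal is given and is no bound. With 1 group of 2 arrays no test was run, and this number limits the precision. The calculation was tested on simulated data (Python 3.11.15, limma 3.58.1). Only loci bright in sample 1 were changed there, with the same detection calls on both arrays. It therefore does not cover dim loci such as CHLI, CHLH, PORA, YGL1, GLK1 and GLK2.

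Members and lists were chosen with earlier results of these data known. Of each further list, members at least 2-fold apart are named (at most 4), or else the furthest apart. The reference table (assembly ASM3414082v1) held 8 of the 10 member names on the chromosome of their locus, and 36 of 65 other listed symbols. CRD1 and YGL1 are named by the choice of members, and other unmatched loci appear by identifier. No coordinates are given, since the reference is of another build. Normexp used an offset of 50 and the median spot signal, since the mean is not among the columns used here.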

Additional observations from a re-analysis of the deposited data

How the results depend on the processing

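No paired analysis was possible because there is only 1 group. Of 114 values recomputed under other settings, 87 stayed within the SD of the difference over loci (0.39) or within 1.5 times the count, 27 did not, and no called value changed sign. The count of 9 loci detected on both arrays, which leaving out a sample (9 to 9) cannot lower, fell to 3 above the highest control probe on both arrays and to 5 when every probe had to be detected. The shares of all loci under these stricter rules were not counted. With normexp, whose offset of 50 shrinks differences between low signals, the median was 0.30 and 1 locus was past 2-fold. The differences were 0.61 for CHLI, 0.41 for CHLH, 1.87 for PORA, 0.30 for YGL1, 0.40 for GLK1 and 0.27 for GLK2. In the authors' deposited table they were 0.86 for CHLI, 0.62 for CHLH, 2.24 for PORA, 0.49 for GLK1 and 0.52 for GLK2, with a median of 0.49 and 1 locus past 2-fold. The deposited values also shrink differences between low signals. With signals raised to the highest control probe, a setting chosen after seeing the data, they were 0.41 for CHLI, 0.13 for CHLH, 2.48 for PORA and 0.085 for GLK1, with a median of 0.13 and 1 locus past 2-fold. By the brightest probe alone, CHLH differed by 0.72 and YGL1 by 1.16. Without the CHLH probe named for another locus, also chosen after seeing the data, CHLH and the median were both 0.72. Over all loci, 352 were 2-fold higher in sample 2, against 69 with normexp, 86 in the authors' deposited table, 221 with quantile normalization, 125 with the raised floor and 834 without the filter on dim probes. Toward sample 1 these counts were 96, 42, 56, 130, 48 and 330. The signs of CRD1 and CAO1 turned under median scaling (-0.06 and -0.03), and that of CRD1 also under quantile normalization (-0.01), by the brightest probe (-0.03) and in the authors' deposited table (-0.01). The causes were not tested. Signal over background limits CHLI, CHLH, GLK1, GLK2 and PORA in sample 1.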

Other observations

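Carotenoid synthesis, the other pigment pathway of plastids, was detected at all 6 loci on the array in both samples, with a median difference of 0.13. PSY1 (Os06g0729000), a phytoene synthase, was the locus past 2-fold, at 21.6 in sample 2 and 9.77 in sample 1 (difference 1.11). That value came from 1 of its 5 probes, and both signals lay under the highest control probe. No other locus of the list was 2-fold apart. Of all loci, 84.0% were detected on both arrays, and 1.8% of these were 2-fold higher in sample 2.

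A probe named for CRD1 but assigned to another transcript identifier in the files gave 18.1 in sample 2 and 8.86 in sample 1. It was well above background in sample 2 alone, with a ratio of 2.00 to the undetected signal, which is not a lower bound. A probe named for GLK1 and likewise assigned elsewhere gave 1.60 in sample 2 and 1.65 in sample 1, neither well above background.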
